A study of Homo sapiens with 6 samples.

Results

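The genes described here encode the machinery that brings proteins into mitochondria and folds them there. Members were chosen by gene symbol: all array genes whose symbol starts with TIMM or TOMM, together with HSPD1, HSPE1, HSPA9, GRPEL1, GRPEL2, PMPCA, PMPCB, CHCHD4, GFER, SAMM50, MTX1, MTX2, DNAJC15 and DNAJC19. Where a symbol has several probe sets the brightest over all 6 arrays is taken, and each member had 1. This gave 38 of the 17687 named genes on the array. TOMM6 and TOMM40L were not analysed here. The set was proposed with results of these arrays already known, so counts and medians over its members are given as descriptions.

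RNA was measured on 6 Clarion S arrays, 1 for each cell line and condition. PC-9 and HCC827, both derived from lung adenocarcinoma, carry a mutant EGFR, the receptor for epidermal growth factor (EGF). Each was profiled after 6 hours in 0.01 µM erlotinib, which blocks the kinase of EGFR, and as a control. H322, a lung tumour line whose EGFR is wild type, was profiled after 6 hours with EGF, written in the labels as 100 µg/ml, and as a control. The labels describe medium with tumour necrosis factor alpha and do not say whether control cultures received it, so a part of it in each contrast cannot be told apart from the drug or ligand. No time is given for the control cultures, so a part of time in each contrast cannot be told apart either. Nothing in the labels names a second culture of any line.

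Most mitochondrial proteins are encoded in the nucleus and made in the cytosol as precursors. As background, they enter through the TOM channel of the outer membrane and are then sorted. Precursors with a cleavable presequence pass the TIM23 translocase, are pulled in by the motor around the chaperone HSPA9, cut by a processing peptidase and folded by the HSPD1 and HSPE1 chaperonin. Carrier proteins are escorted by small TIM chaperones to the TIM22 translocase, small cysteine-rich proteins are trapped in the intermembrane space by CHCHD4, and barrel proteins are inserted by the SAM complex. Dividing cells need import for mitochondrial growth.

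With erlotinib 3 of the 38 members fell and none rose at an adjusted p of 0.05 in limma, a linear model fitted over all genes with the cell line as a block. They were TIMM8A, GRPEL1 and TOMM40, a chaperone of the intermembrane space, an exchange factor of the import motor and the outer membrane channel. Over all genes 0.916% were called lower and 0.565% higher. By unadjusted p under 0.05, 14 members were lower and 0 higher, or 36.8% of members against 14.4% of all genes in either direction. Many of all genes are dim, and fewer of the members are. Among genes above the negative controls on all 6 arrays the shares were 40.6% of 32 members and 22.4% of 7405 genes. The mean log2 change of the members had a median of -0.30, with -0.18 in PC-9 and -0.42 in HCC827, where the medians of all genes were 0.01 and -0.005. Both lines gave a lower value for 23 members, or 60.5%, against 29.6% of all genes, and a higher value for 6 members, or 15.8%, against 30.0% of all genes. The other 9 members had opposite signs.

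**Figure D1:**
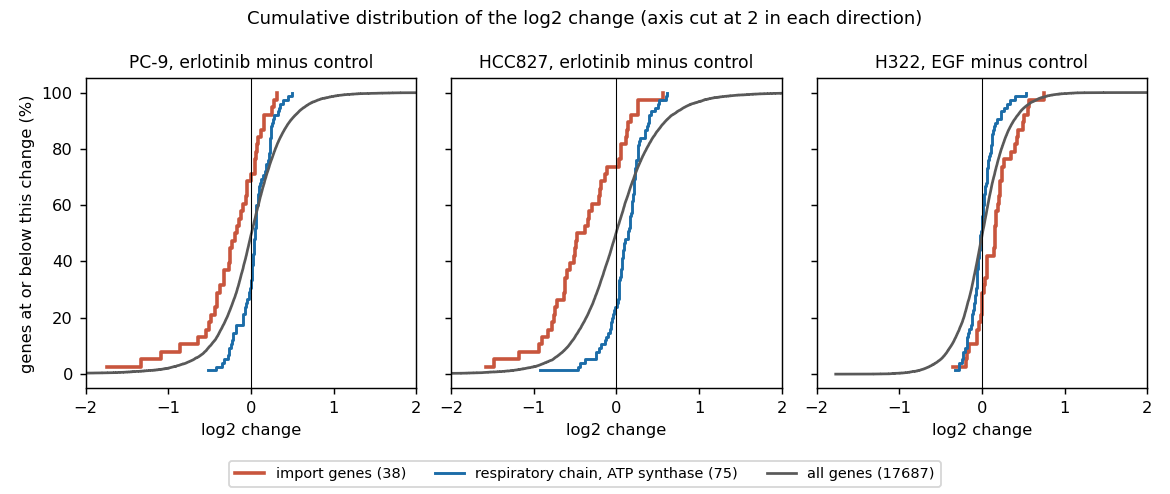
Cumulative share of genes (%) by log2 change in PC-9 and HCC827 (erlotinib minus control) and in H322 (EGF minus control), for the 38 import genes, 75 nuclear genes of the respiratory chain and ATP synthase, and all 17687 genes. The median of the import genes lies left of the other medians with erlotinib (-0.18 and -0.42) and right of them with EGF (0.16).

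In PC-9, 5 of the 35 members with at least 1 array above the negative controls were at least 1.5-fold lower and 0 were as much higher, where 9.22% and 7.84% of all such genes were. In HCC827 13 of 36 were at least 1.5-fold lower and 0 higher, against 9.83% and 14.8% of all genes. The 4 members lower by this amount in both lines, of 34 that could be counted, were CHCHD4, GRPEL1, TIMM8A and TOMM40. Over all genes 4.09% were lower and 3.97% higher by this amount in both lines, and no member was higher. Across the 32 members above the negative controls on every array, the changes in PC-9 and HCC827 correlated at a Pearson r of 0.65, where r was 0.59 across all 7405 such genes. These points share arrays and scaling, and genes are not independent replicates.

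**Figure D2:**
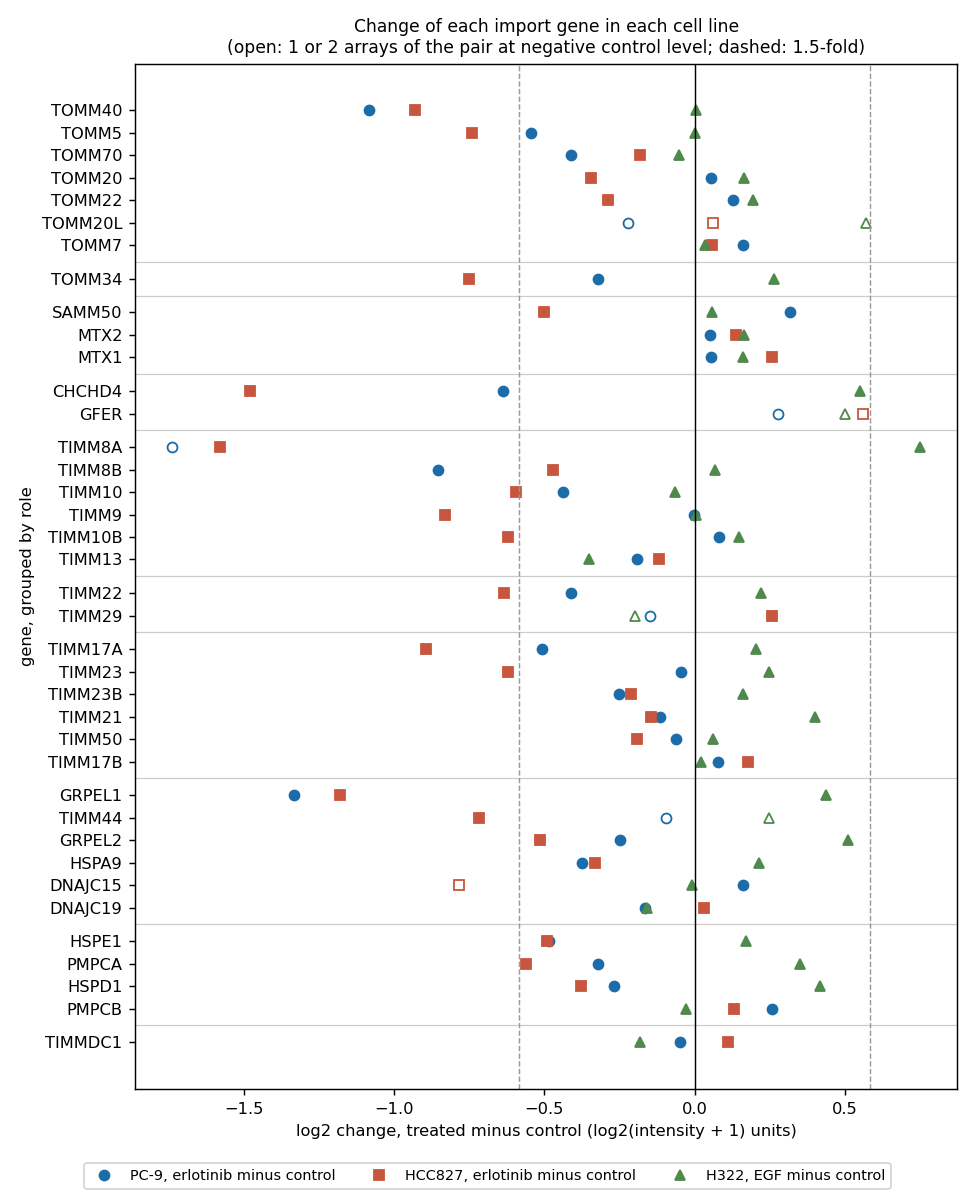
Log2 change of each import gene (treated minus control) in PC-9, HCC827 and H322, with genes grouped by role from the TOM complex at the top to TIMMDC1 at the bottom. TIMM8A, GRPEL1, CHCHD4 and TOMM40 lie beyond 1.5-fold on the low side in both erlotinib-treated lines, and with EGF only TIMM8A lies beyond it on the high side. Open symbols mark pairs with an array at the level of the negative controls.

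The promoter windows of TIMM8A, CHCHD4 and TOMM40 are shown because these 3, of the 4 members at least 1.5-fold lower in both lines, have a window in the RefSeq table (GRCh38.p14). In all 35 of 38 members have one, and GRPEL1, TIMM8B and TOMM5 do not. HSPE1 is shown because it lies head to head with HSPD1: the windows of the 2 genes, on opposite strands, share 204 bases, and both belong to the chaperonin. Each window runs 5′ to 3′ on the gene's strand, with 250 bases before the annotated start and 50 after it. Capitals mark matches on either strand to CACGTG, the E-box bound by MYC with MAX, or to the NRF1 motif, GCGC and TGCGC with any 1 base between them, the site of nuclear respiratory factor 1. TIMM8A lies at chrX:101348693-101348992 on the minus strand, CHCHD4 at chr3:14124821-14125120 on the minus strand, TOMM40 at chr19:44891004-44891303 on the plus strand and HSPE1 at chr2:197500129-197500428 on the plus strand.
TIMM8A: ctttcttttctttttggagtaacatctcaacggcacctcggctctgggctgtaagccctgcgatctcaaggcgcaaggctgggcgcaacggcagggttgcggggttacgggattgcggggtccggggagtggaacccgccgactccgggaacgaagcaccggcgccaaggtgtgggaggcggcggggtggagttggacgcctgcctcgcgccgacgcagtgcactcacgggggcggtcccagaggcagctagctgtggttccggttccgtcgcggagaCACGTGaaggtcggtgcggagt
CHCHD4: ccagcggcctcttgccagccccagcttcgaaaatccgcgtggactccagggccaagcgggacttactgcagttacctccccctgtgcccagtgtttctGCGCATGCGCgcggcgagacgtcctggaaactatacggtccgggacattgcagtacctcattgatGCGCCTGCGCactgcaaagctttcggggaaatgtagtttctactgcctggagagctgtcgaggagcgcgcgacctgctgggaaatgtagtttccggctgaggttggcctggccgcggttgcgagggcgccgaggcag
TOMM40: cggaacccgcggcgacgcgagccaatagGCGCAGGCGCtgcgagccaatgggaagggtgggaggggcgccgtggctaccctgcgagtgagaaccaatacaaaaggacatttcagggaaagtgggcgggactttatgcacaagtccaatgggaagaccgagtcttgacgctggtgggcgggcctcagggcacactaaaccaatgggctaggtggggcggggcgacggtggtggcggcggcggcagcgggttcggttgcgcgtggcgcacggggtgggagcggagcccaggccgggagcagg
HSPE1: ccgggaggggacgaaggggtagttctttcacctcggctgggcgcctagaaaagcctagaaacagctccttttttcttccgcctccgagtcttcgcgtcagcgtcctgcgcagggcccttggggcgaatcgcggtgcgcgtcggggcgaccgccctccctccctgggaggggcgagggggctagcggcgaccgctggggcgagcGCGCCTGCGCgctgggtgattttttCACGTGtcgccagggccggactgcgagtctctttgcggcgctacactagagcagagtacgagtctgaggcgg

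The TIMM8A window holds CACGTG starting at its base 279, past the start site. The CHCHD4 window holds the NRF1 motif at bases 99 and 164 and the TOMM40 window at base 29. In the HSPE1 window the NRF1 motif at base 204 and CACGTG at base 229 stand together, and both also lie in the HSPD1 window. Among the members the NRF1 motif was found for 9 of 35, or 25.7%, against 9.94% of the 14205 array genes with a window and 5.74% of all 34943 windows. CACGTG was found for 6 of 35 members, or 17.1%, against 10.8% of array genes and 7.23% of windows. CCGGAAG, a core bound by ETS factors, was found for 15 members, or 42.9%, against 16.5% of array genes and 10.2% of windows, and for none of the 3 lowest members shown. The heat shock element core GAANNTTC was found for 1 member, HSPD1, against 7.43% of array genes and 6.79% of windows. The sites shared by HSPD1 and HSPE1 are counted for both genes in the NRF1 motif and CACGTG shares. TIMM23 and its near-identical copy TIMM23B are both in the CCGGAAG share. A match is a string of letters and was not tested as a binding site.

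Within the TOM complex 1 of 7 genes was called lower in limma, the channel TOMM40. In both lines 3 of the 7 had a lower value, or 42.9%, against 29.6% of all genes. TOMM40, the channel through which nearly all precursors pass, had log2 signals of 10.19 with erlotinib against 11.27 in control PC-9 cells, and 11.43 with erlotinib against 12.36 in control HCC827 cells. Both lines were lower with erlotinib, PC-9 by 2.12-fold and HCC827 by 1.91-fold. In log2 units TOMM40 fell by 1.01 ± 0.17 (moderated SE over 2 lines), with an adjusted p of 0.0401 in limma. With EGF it had 11.30 against 11.30 in control H322 cells, a log2 difference of 0.01. TOMM5, a small subunit of the complex, had 10.89 with erlotinib against 11.43 in control PC-9 cells and 12.09 against 12.83 in HCC827 cells, a mean change of -0.64 ± 0.16 that did not pass (limma adjusted p = 0.111).

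The receptors of the TOM complex recognise precursors on the cytosolic side. TOMM70, which docks chaperone-bound precursors, had 10.41 with erlotinib against 10.82 in control PC-9 cells and 12.27 against 12.45 in HCC827 cells. TOMM20, which binds presequences, had 12.92 with erlotinib against 12.86 in control PC-9 cells and 11.20 against 11.55 in HCC827 cells. TOMM22, the central receptor, had 13.24 with erlotinib against 13.11 in control PC-9 cells and 11.99 against 12.28 in HCC827 cells. TOMM20 and TOMM22 were thus on opposite sides of their controls in the 2 lines, and TOMM70 was lower in both. No receptor passed (limma adjusted p between 0.489 and 0.885). TOMM7, another small subunit, had a mean change of 0.11. TOMM20L, a relative of TOMM20, lay at background on all 6 arrays, so no fold is given. TOMM34, a cytosolic cochaperone of HSP70 and HSP90, had 13.74 with erlotinib against 14.06 in control PC-9 cells and 12.06 against 12.81 in HCC827 cells, with a mean of -0.54 ± 0.15 that did not pass (limma adjusted p = 0.16). TOMM20 and TOMM7 have processed pseudogenes elsewhere in the genome, so their signals are uncertain.

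The sorting and assembly genes had values on both sides of 0. SAMM50, the insertase for barrel proteins, had 12.17 with erlotinib against 11.85 in control PC-9 cells and 10.95 against 11.45 in HCC827 cells, 1.25-fold higher and 1.42-fold lower. The metaxins MTX1 and MTX2, its partners on the cytosolic side, had mean changes of 0.16 and 0.09. None of these 3 genes passed (limma adjusted p between 0.775 and 0.907).

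In the intermembrane space relay the oxidoreductase and its partner had values on opposite sides of 0. CHCHD4, which traps cysteine-rich proteins by forming disulfides in them, had 7.72 with erlotinib against 8.36 in control PC-9 cells and 8.40 against 9.89 in HCC827 cells. PC-9 was 1.56-fold lower and HCC827 2.79-fold lower, and the mean of -1.06 ± 0.28 did not pass (limma adjusted p = 0.127). With EGF CHCHD4 had 8.37 against 7.81 in control H322 cells, 1.47-fold higher. GFER, the sulfhydryl oxidase that reoxidises CHCHD4, had 7.49 with erlotinib against 7.21 in control PC-9 cells, 7.55 against 6.99 in HCC827 cells and 7.66 with EGF against 7.16 in H322 cells. All 3 control arrays of GFER lay at the level of the negative controls and all 3 treated arrays above it, so it was at least 1.11-fold, 1.21-fold and 1.14-fold higher in PC-9, HCC827 and H322. Its mean with erlotinib, the highest of the members at 0.42 ± 0.26, did not pass (limma adjusted p = 0.545).

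Among the small TIM chaperones 5 of 6 had a lower value with erlotinib in both lines, where 29.6% of all genes did, and 1 passed in limma. The count includes TIMM9, whose PC-9 change was -0.001. TIMM8A, which works with TIMM13 and is the gene mutated in a deafness and dystonia syndrome, had 7.19 with erlotinib against 8.92 in control PC-9 cells and 9.64 against 11.22 in HCC827 cells. These are intensities of 145 against 485 in PC-9 and 797 against 2385 in HCC827. The erlotinib array of PC-9 was not above the negative controls, so TIMM8A was at least 2.97-fold lower there, and it was 2.99-fold lower in HCC827. TIMM8A fell by 1.66 ± 0.21, the lowest mean of the members (limma adjusted p = 0.0197). With EGF it had 8.89 against 8.14 in control H322 cells, 1.68-fold higher.

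Its relative TIMM8B had 9.57 with erlotinib against 10.42 in control PC-9 cells and 11.77 against 12.25 in HCC827 cells, a mean of -0.66 ± 0.18 (limma adjusted p = 0.151). The log2 change of TIMM8A minus that of TIMM8B was -0.88 in PC-9 and -1.11 in HCC827, a difference that was not tested. TIMM13, the partner of TIMM8A, had 10.15 with erlotinib against 10.34 in control PC-9 cells and 11.18 against 11.29 in HCC827 cells, and its mean of -0.16 ± 0.18 did not pass (limma adjusted p = 0.782). TIMM9 and TIMM10 form the chaperone that carries metabolite carriers. TIMM10 had 11.41 with erlotinib against 11.85 in control PC-9 cells and 11.69 against 12.29 in HCC827 cells. TIMM9 had 9.21 against 9.21 in PC-9 and 10.26 against 11.09 in HCC827, so its difference lay in HCC827. TIMM10B, which docks this chaperone on the TIM22 translocase, had log2 changes of 0.08 in PC-9 and -0.62 in HCC827. These 3 genes did not pass (limma adjusted p between 0.186 and 0.658).

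TIMM22, the channel of the carrier translocase, had 11.20 with erlotinib against 11.61 in control PC-9 cells and 11.84 against 12.48 in HCC827 cells. Its mean was -0.52 ± 0.16 and did not pass (limma adjusted p = 0.189). TIMM29, another subunit of that translocase, lay at the level of the negative controls on 4 of 6 arrays and had a mean of 0.05.

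In the presequence translocase the paralogues TIMM17A and TIMM17B, alternative subunits beside the TIMM23 channel, had different values. TIMM17A, known in human cells as a subunit that is lost quickly under stress, had 11.23 with erlotinib against 11.73 in control PC-9 cells and 11.81 against 12.71 in HCC827 cells. It was 1.42-fold and 1.86-fold lower, with a mean of -0.70 ± 0.17 that did not pass (limma adjusted p = 0.104). TIMM17B had 11.98 with erlotinib against 11.90 in control PC-9 cells and 12.47 against 12.30 in HCC827 cells, with a mean of 0.13 ± 0.15 (limma adjusted p = 0.789). The log2 change of TIMM17A minus that of TIMM17B was -0.58 in PC-9 and -1.07 in HCC827, and 0.18 with EGF in H322.

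The other members of this translocase had means closer to 0 than TIMM17A. TIMM23, the channel, had 13.53 with erlotinib against 13.57 in control PC-9 cells and 12.13 against 12.75 in HCC827 cells. TIMM23B, a near-identical copy whose signal cannot be fully separated from that of TIMM23, had log2 changes of -0.25 and -0.21. TIMM50, the receptor that guides presequences to the channel, had -0.06 in PC-9 and -0.19 in HCC827, and TIMM21, which links the outer and inner translocases, had -0.11 and -0.14. None of these 4 passed (limma adjusted p between 0.442 and 0.831).

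**Figure D3:**
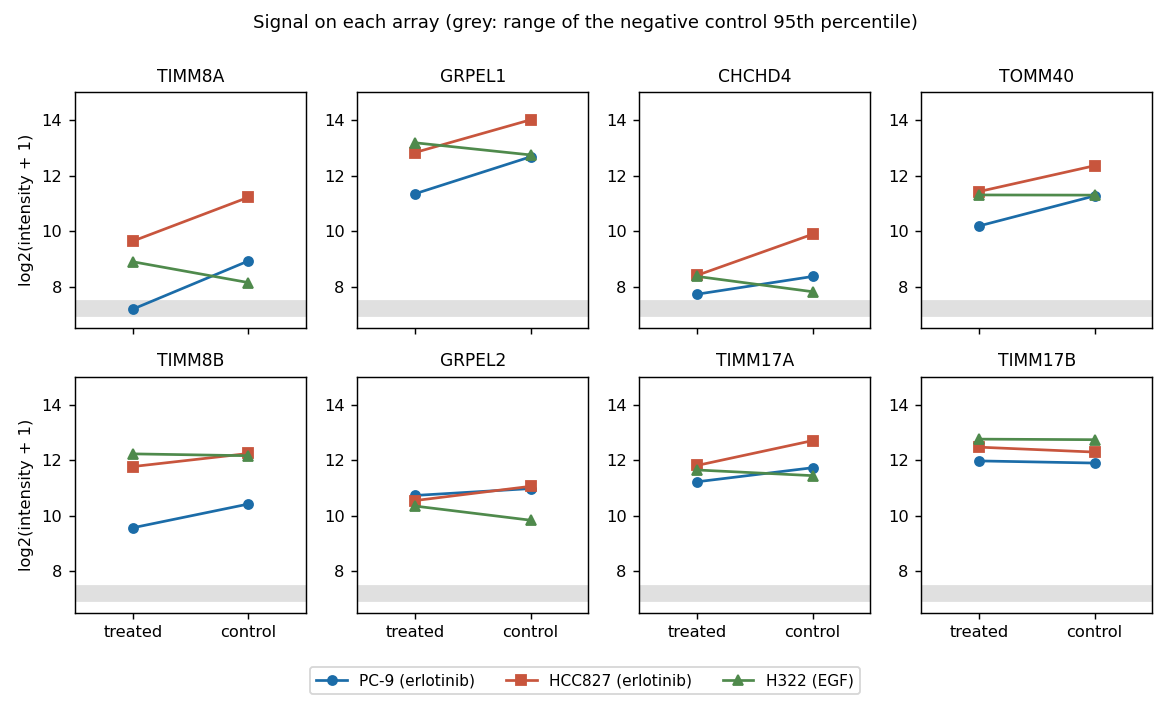
Log2(intensity + 1) of 8 import genes on treated and control arrays of PC-9, HCC827 and H322, 1 array per point, with the range of the negative control 95th percentile in grey. With erlotinib TIMM8A, GRPEL1, CHCHD4 and TOMM40 lie below their controls in both lines, and TIMM17B lies slightly above them.

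In the import motor GRPEL1 had the largest change. GRPEL1, the main nucleotide exchange factor of HSPA9, had 11.35 with erlotinib against 12.68 in control PC-9 cells and 12.83 against 14.01 in HCC827 cells. PC-9 was 2.52-fold lower and HCC827 2.27-fold lower. GRPEL1 fell by 1.26 ± 0.14, or 2.39-fold (limma adjusted p = 0.0151), the lowest adjusted p of the members. With EGF it had 13.19 against 12.75 in control H322 cells, 1.36-fold higher.

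The paralogue GRPEL2 had 10.73 with erlotinib against 10.98 in control PC-9 cells and 10.55 against 11.06 in HCC827 cells, a mean of -0.38 ± 0.18 (limma adjusted p = 0.403), and 10.35 with EGF against 9.84 in H322 cells. The change of GRPEL1 minus that of GRPEL2 was -1.09 in PC-9, -0.67 in HCC827 and -0.07 with EGF in H322, which was not tested. HSPA9 itself, the mitochondrial HSP70, had 13.40 with erlotinib against 13.77 in control PC-9 cells and 14.43 against 14.76 in HCC827 cells, with a mean of -0.35 ± 0.12 (limma adjusted p = 0.226). TIMM44, which anchors HSPA9 at the channel, was above the negative controls on both HCC827 arrays and 1.64-fold lower there with erlotinib, and on neither PC-9 array. The J-domain genes that stimulate HSPA9 had small values where they were measured. DNAJC19 had log2 changes of -0.17 in PC-9 and 0.03 in HCC827, and DNAJC15 had 0.16 in PC-9.

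In the matrix the 2 subunits of the processing peptidase differed. PMPCA, the subunit that binds presequences, had 11.90 with erlotinib against 12.22 in control PC-9 cells and 12.08 against 12.64 in HCC827 cells. PMPCB, the catalytic subunit, had 12.88 with erlotinib against 12.63 in control PC-9 cells and 12.84 against 12.70 in HCC827 cells. The means were -0.44 ± 0.15 for PMPCA and 0.19 ± 0.14 for PMPCB, and neither passed (limma adjusted p = 0.247 and 0.608). The log2 change of PMPCA minus that of PMPCB was -0.58 in PC-9 and -0.69 in HCC827, a difference that was not tested.

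The chaperonin genes HSPD1 and HSPE1 encode the folding chamber and its lid. HSPE1 had 12.79 with erlotinib against 13.28 in control PC-9 cells and 13.36 against 13.86 in HCC827 cells, 1.40-fold and 1.41-fold lower. HSPD1 had 13.51 with erlotinib against 13.77 in control PC-9 cells and 14.49 against 14.87 in HCC827 cells, 1.20-fold and 1.30-fold lower. Their means of -0.49 ± 0.13 and -0.32 ± 0.12 did not pass (limma adjusted p = 0.133 and 0.273). Both have processed pseudogenes, so their signals are uncertain. TIMMDC1, an assembly factor of complex I that shares the name but not the import role, had a mean of 0.03 ± 0.14.

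The calls rest on a spread taken mostly from other genes, since the fit has 1 residual degree of freedom. With 1 spread for bright and dim genes alike, or with no block for the cell line, limma called 0 members. With genes at background on every array left out, TOMM40 no longer passed (limma adjusted p = 0.0578).

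With EGF in H322, where 1 array per condition allows no test, 30 of 38 members had a higher signal than the control, or 78.9%, against 51.1% of all genes. The median log2 change was 0.16, against 0.01 for all genes. Only TIMM8A was at least 1.5-fold higher, 1 of 36 members with an array above the negative controls, where 2.23% of such genes were. None was at least 1.5-fold lower, where 1.64% of such genes were. The next highest among members above the negative controls on both arrays were CHCHD4, GRPEL2, GRPEL1, HSPD1, TIMM21 and PMPCA, at 1.47-fold, 1.42-fold, 1.36-fold, 1.34-fold, 1.32-fold and 1.27-fold. The lowest was TIMM13, at 1.28-fold lower.

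The directions with EGF and with erlotinib come from different lines and different control arrays. Of the 32 members above the negative controls on all 6 arrays, 18 were lower with erlotinib in both EGFR-mutant lines and higher with EGF in H322, whatever the size, or 56.3%, against 21.3% of all such genes. They hold CHCHD4, GRPEL1, GRPEL2, HSPA9, HSPD1, HSPE1, PMPCA and TIMM17A among them. Across these 32 members the mean erlotinib change and the EGF change had a Pearson r of -0.40, where all 7405 genes had -0.42. TOMM40, TIMM9 and TOMM5 are in this count with EGF log2 differences of 0.01, 0.01 and 0.002.

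The 3 control arrays differed by at least 2-fold for many members, at a share close to that of all genes. The brightest control was at least 2-fold over the dimmest for 22 of 36 members, or 61.1%, where 58.3% of all genes reached this. Of these 22 members the HCC827 control was the brightest for 14, or 63.6%, against 28.6% of all genes at this threshold. TIMM8A had control signals of 11.22 in HCC827, 8.92 in PC-9 and 8.14 in H322, an 8.44-fold span. CHCHD4 had 9.89 in HCC827, 8.36 in PC-9 and 7.81 in H322, a 4.21-fold span. GRPEL1, TOMM40, TIMM17A, TOMM5 and TOMM70 were also brightest in HCC827, with spans between 2.13-fold and 3.10-fold. With 1 control per line these differences have no replicate check. The same HCC827 control array is subtracted in the HCC827 erlotinib changes, so the 2 results are not independent. CHCHD4, GRPEL1, TIMM17A, TIMM22, TIMM8A, TIMM9, TOMM40 and TOMM5 are among the 14 and also at least 1.5-fold lower with erlotinib in HCC827.

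DNAJC15, a J-domain protein of the inner membrane that stands beside DNAJC19 in the import motor, had the widest span. It had log2 signals of 13.42 in PC-9 and 13.24 in H322 controls, and 6.48 in the HCC827 control, where neither array was above the negative controls. The PC-9 control of DNAJC15 exceeded that of HCC827 by at least 70.9-fold. Its paralogue DNAJC19 had 10.87 in PC-9, 10.87 in H322 and 10.20 in HCC827. In the opposite direction to TIMM8A, TOMM20, MTX2 and TIMM23B were lowest in HCC827, with 2.48-fold, 2.25-fold and 2.32-fold spans, and MTX1 was 4.16-fold higher in H322 than in PC-9. At 1.05-fold TIMMDC1 had the narrowest span of the members with an array above the negative controls in each line.

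**Figure D4:**
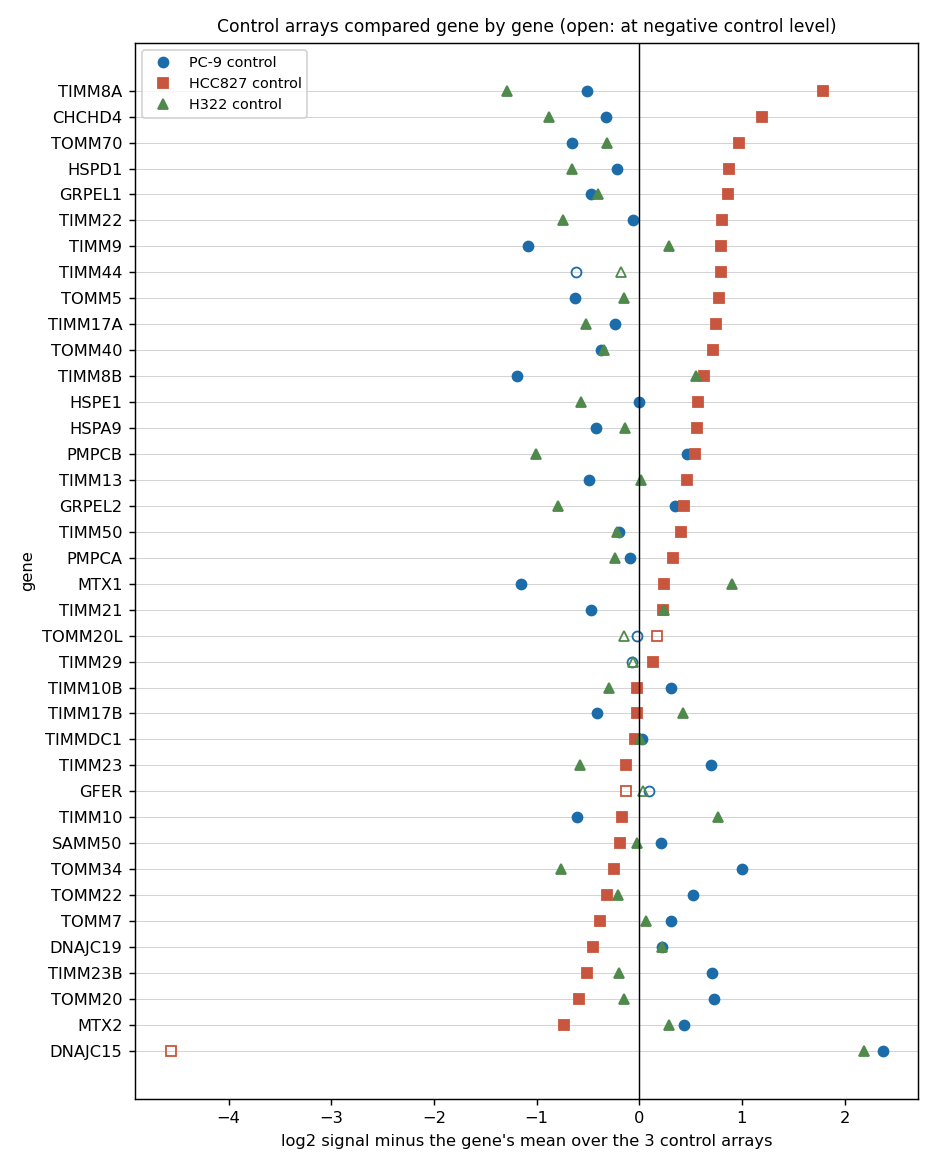
Log2 signal of each import gene on the 3 control arrays, minus the gene's mean over them, with genes ordered by the HCC827 value. TIMM8A and CHCHD4 lie highest in HCC827 and DNAJC15 lies far lowest there, at the level of the negative controls (open symbol).

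Genes around the pathway were set beside the members. Of 75 nuclear genes for subunits of the respiratory chain and ATP synthase, many of them import substrates, 0 passed in limma, with 3 higher and 0 lower at an unadjusted p under 0.05. Their median with erlotinib was 0.10, with 41 higher in both lines, or 54.7%, and 7 lower in both, or 9.33%. Over all genes 30.0% were higher and 29.6% lower in both lines. An unadjusted limma p under 0.05 was found for 4% of the 75, against 14.4% of all genes. Among genes above the negative controls on all 6 arrays the 3 shares were 37.4%, 30.7% and 22.4%. With EGF 48% of the 75 were higher, against 51.1% of all genes. NDUFA2, NDUFV2 and NDUFB5, subunits of complex I, had means of 0.47, 0.44 and 0.37. Of 10 import accessory genes 0 passed in limma or had an unadjusted p under 0.05. In both lines 5 were higher and 3 lower, with means between -0.52 and 0.51. With EGF 40% of them were higher. The 3 largest among those above the negative controls had positive means: MIPEP, the intermediate peptidase, at 0.51, PITRM1, which degrades cut presequences, at 0.25, and AIFM1, the anchor of CHCHD4, at 0.21. Of 8 cytosolic chaperones none passed in limma and 1 had an unadjusted p under 0.05, STIP1, which hands clients between HSP70 and HSP90, at -0.46 ± 0.12 (limma adjusted p = 0.128). DNAJB1 and HSP90AB1 had -0.20 and -0.19. In both lines 6 of the 8 cytosolic chaperones were lower, or 75%, and 0 higher, against 29.6% and 30.0% of all genes. With EGF 75% of them were higher, against 51.1% of all genes.

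Of 11 mitochondrial proteases and chaperones 0 passed in limma, with 1 lower and 2 higher at an unadjusted p under 0.05. DNAJA3, the matrix HSP40, had -0.60, the protease chaperone CLPX 0.49 and the protease LONP1 -0.37. In both lines 5 of the 11 were lower and 3 higher, and 81.8% were higher with EGF. Of 8 MICOS genes, which shape the cristae and bind SAMM50, 0 passed or had an unadjusted p under 0.05 in limma. MICOS13, APOO and DNAJC11 had means of -0.39, -0.38 and -0.27, with MICOS13 at -0.86 in PC-9 and 0.09 in HCC827. In both lines 3 of the 8 MICOS genes were lower and 1 higher, and 62.5% were higher with EGF. Of 10 regulators of mitochondrial gene expression 1 was called lower in limma, PPRC1, a coactivator of the PGC-1 family named after its values were seen. PPRC1 had 7.09 with erlotinib against 8.89 in control PC-9 cells and 8.12 against 9.72 in HCC827 cells, and fell by 1.70 ± 0.24 (limma adjusted p = 0.0244), with the PC-9 erlotinib array not above the negative controls. With EGF PPRC1 had 8.47 against 7.91 in control H322 cells. MYC, ESRRA and TFB2M had means of -1.43, -0.55 and -0.52 and did not pass. The log2 changes in PC-9 and HCC827 were -2.31 and -0.56 for MYC, -0.98 and -0.13 for ESRRA, and -0.55 and -0.48 for TFB2M. The median over the 10 regulators was -0.28. In both lines 7 of the 10 were lower and 0 higher, and 90% were higher with EGF. Of the import members 60.5% were lower in both lines and 78.9% higher with EGF, so these directions are not particular to them.

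Markers of cell types were read on the arrays. They were not a check of which line, or which treatment, an array holds. All 6 epithelial marker genes, among them EPCAM, CDH1 and KRT8, were above the negative controls on every array, and none of the 3 measured leukocyte markers was on any. Of 4 fibroblast markers only COL1A2 was above them, on 5 arrays, and of 3 endothelial markers CDH5 was above them in PC-9 and VWF on 1 array. The log2 of the summed fibroblast signals was 8.24 with erlotinib against 8.22 in control PC-9 cells, 7.89 against 8.40 in HCC827 cells and 8.27 with EGF against 7.64 in control H322 cells. COL1A2 had log2 changes of -0.09, -0.61 and 0.82 in PC-9, HCC827 and H322. Its H322 control was the dim array, at 7.07 against a negative control level of 7.47. The size of the 0.82 is therefore uncertain. In PC-9, HCC827 and H322 the COL1A2 changes have the same sign as the members' medians of -0.18, -0.42 and 0.16. The epithelial markers had a median change of -0.22 with erlotinib and 0.08 with EGF, also the signs of the members' medians. With erlotinib 4 of these 6, the keratin genes, were lower in both lines, with means between -0.33 and -0.17. EPCAM and CDH1 were higher in both lines, with means of 0.10 and 0.18. The part of either marker list in the members' values was not tested. Each array had between 48.8% and 52.4% of its genes and between 34 and 36 members above that level. Precision is limited by having 1 array per line and condition.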

How the data were processed

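The authors deposited 1 linear intensity per probe set and array. The submitters' processing notes name Affymetrix Expression Console, and its version, background correction and scaling were not stated in what was read here. Array medians lay between 148 and 157, so scaling could hide a change shared by most genes. Symbols came from the platform annotation (17709 of 24351 probe sets), and the brightest probe set per symbol was kept. From the intensities log2(value + 1) was computed, which understates changes of dim genes. Since the values were linear, the offset in the written design applied.

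Background was the 95th percentile of 612 negative control probe sets on each array, between 6.92 and 7.47 on the log2 scale. A gene below it on 1 array of a pair has a bound, written "at least", computed from that level. With both below, no fold is given.

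Erlotinib was compared with control on 4 arrays by limma (version 3.58.1, R 4.3.3), with eBayes and a trend, blocking on cell line. Two-sided p-values were adjusted by Benjamini-Hochberg across 17687 genes, with calls at 0.05. The pairing comes from the cell line: arrays of a line correlated at 0.991 (PC-9) and 0.988 (HCC827), and the 2 controls at 0.907. The model adds 6.58 degrees of freedom from other genes to 1 residual. Values after ± are its moderated SE. The p-values rest mostly on the spread of other genes and otherwise on the difference between the changes of the 2 lines. Nothing in the labels names separate cultures, so they do not measure a spread between cultures of a line. Single lines were compared at 1.5-fold with no test.

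Members, related lists and named genes were chosen with earlier results of these data known. Members called and those at 1.5-fold in both erlotinib-treated lines or with EGF are given in full. Paralogue pairs and other members are given in part, and of other lists the 3 largest changes above background. The scripts were tested on simulated data. Promoter sequences are from RefSeq, GRCh38.p14, and symbols of all 38 members matched its gene table.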

Additional observations from a re-analysis of the deposited data

How the results depend on the processing

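The count of members called lower with erlotinib depended on the model, while no member's mean changed sign in any of the 9 alternative fits. Against 3 members, limma called 0 with no trend of the spread on the level and 0 with no replicate block for the cell line, where the fits over all genes called 1 and 0. It called 6 after quantile normalization. It called 9 when a floor at the negative controls was set under dim signals, a setting that called 582 genes lower and 533 higher over all genes, against 162 and 100. Higher calls among members stayed at 0 under each of the 9 alternative fits. Of these fits GRPEL1 and TIMM8A were called in 7, with limma adjusted p from 5.05e-12 and 1.75e-08 upward. TOMM40 was called in 6, with limma adjusted p from 1.69e-05 upward. These lowest values all came from the fit with the floor. That floor gives genes dim on all 4 arrays the same values, and these genes shape the spread taken from other genes. The highest adjusted p of all 3 was 0.999991, with no replicate block. TIMM17A was called in 3 and CHCHD4 and TOMM5 in 2. The members' median was -0.42 with HCC827 alone and -0.18 with PC-9 alone, and no test is possible with 1 line. With 1 line left out, the 9 members of opposite sign in the 2 lines turn, among them SAMM50, at -0.09 over both lines and 0.32 in PC-9 alone, and no called member does. With that floor the median of all genes moved to -0.17. TOMM20L, dim on all arrays, has this same value there, which comes from the floor levels alone. The members' median with the floor was -0.28. Over all genes the fits called 108 lower and 58 higher with an offset of 16, 366 and 270 with arrays centred on their medians, 505 and 449 after quantile normalization, and 69 and 27 among 10011 genes above the negative controls. No member had a second probe set to average. Signal over background limits TIMM44, TIMM29, GFER, TOMM20L, DNAJC15 in HCC827 and TIMM8A in PC-9.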
